A study of Rattus norvegicus with 99 samples.

Results

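Genes that mark fat cells were followed through every library of heart tissue in a rat study of pressure overload. The genes were chosen by name as products of fat cells, and 6 of the 7 listed (Adipoq, Plin1, Cidec, Lep, Cfd and Fabp4) were found by symbol among the 17337 genes of the whole-tissue table. Plin4 was not analysed here.

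The tissue came from 33 male rats, the offspring of female Wistar Kyoto and male Lewis parents. A clip was placed around the pulmonary artery (pulmonary artery banding, PAB), which loads the right ventricle, or around the aorta (aortic banding, AOB), which loads the left ventricle, and sham animals had surgery without it. From each animal the left ventricle (LV), the septum (Spt) and the right ventricle (RV) gave 1 library each, 99 in all. At 7 weeks after surgery, in the compensated stage (H, 11 weeks of age by the labels), there were 7 Sham-H, 7 PAB-H and 7 AOB-H animals. The failure stage (F) was taken at 21 weeks for 3 PAB-F animals and their 2 controls, Sham-RF (27 weeks of age), and at 24 weeks for 4 AOB-F animals and their 3 controls, Sham-LF (30 weeks of age). Every animal of a group was a separate rat, and all libraries were made from pieces of tissue, with the vessels and surface layers that such pieces carry, not from isolated cells.

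Libraries held 12057180 to 24197244 counts assigned to genes (median 17391374). Taken as the floor of detection, 3 counts correspond to 0.124 to 0.249 per 1000000 assigned, without further scaling. CPM values below are counts per 1000000 of a library total scaled by a TMM factor, which corrects for composition. That total is over the genes that pass the count filter. Of 228 pairs of libraries within a group, 0 held identical counts. Several labels conflict: a tissue field of RV samples names the left ventricle, the description of the RV sample of Sham-LF replicate 1 names another column of sham data, and the sample sheet of the study exchanges the septa of AOB-F replicates 1 and 2. The age and weeks given here are those of the labels, from which the protocol text departs. Over the 50 genes that separated RV from LV most evenly, 30 of 33 animals shared a direction and 3 showed the opposite one. These 3 were Sham-H replicate 6, PAB-H replicate 2 and AOB-H replicate 1. Member comparisons between groups or chambers of LV and RV are also given without them below. So are the correlations of Adipoq with the other members and between chambers, and the variance share of condition. The interaction contrasts, the ranking and lists by correlation and the share of short genes are given with all animals only. The ventricular muscle markers Myh6, Myl2, Tnnt2, Tnni3, Actc1 and Ryr2 summed to 47138 CPM or more in every library. These genes mark ventricular muscle and do not tell LV, septum and RV apart. By runs of library numbers the libraries formed 3 series. LV and RV libraries of each H group lay in series 1, 2 and 3, those of the F groups in series 2, and septum libraries in series 2 and 3.

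White fat cells store triglyceride in a single large droplet. Perilipin 1 (Plin1) coats this droplet and gates lipolysis, and CIDEC enlarges it by droplet fusion. The cells secrete adiponectin (Adipoq), which promotes the use of fatty acids and glucose, leptin (Lep), which reports fat stores to the brain, and adipsin (Cfd), the serine protease of the alternative complement pathway. FABP4 carries fatty acids inside fat cells and is also abundant in capillary endothelium, including that of the heart. On the heart, fat lies under the mesothelial surface, mostly along the groove between atria and ventricles and beside the coronary vessels.

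Adipoq, Plin1 and Cidec followed each other closely from library to library, as described below, and their promoters are shown for this reason. Each runs from 250 bases before to 50 bases after the RefSeq start of the gene in the assembly GRCr8, 5′ to 3′ on the gene's strand, and capitals mark the motif matches. The positions are chr11:91240120-91240419 for Adipoq, chr1:143086099-143086398 for Plin1 and chr4:148137066-148137365 for Cidec, each on the minus strand.
Adipoq: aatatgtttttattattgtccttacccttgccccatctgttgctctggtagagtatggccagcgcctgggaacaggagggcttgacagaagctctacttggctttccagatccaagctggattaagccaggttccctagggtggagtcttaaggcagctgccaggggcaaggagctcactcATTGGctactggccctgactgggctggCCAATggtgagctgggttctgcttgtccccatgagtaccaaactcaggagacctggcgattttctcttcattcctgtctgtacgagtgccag
Plin1: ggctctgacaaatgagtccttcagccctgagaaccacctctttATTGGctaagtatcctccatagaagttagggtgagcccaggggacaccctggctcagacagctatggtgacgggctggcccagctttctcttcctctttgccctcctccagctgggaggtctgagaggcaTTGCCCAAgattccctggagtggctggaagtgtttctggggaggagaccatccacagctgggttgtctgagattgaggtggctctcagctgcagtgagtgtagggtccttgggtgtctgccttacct
Cidec: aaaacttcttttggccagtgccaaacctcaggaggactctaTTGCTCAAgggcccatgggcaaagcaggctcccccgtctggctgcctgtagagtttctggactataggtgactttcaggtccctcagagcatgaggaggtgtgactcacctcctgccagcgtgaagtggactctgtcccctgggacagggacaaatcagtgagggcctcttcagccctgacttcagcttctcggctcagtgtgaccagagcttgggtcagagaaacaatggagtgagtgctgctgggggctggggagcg
Both strands were searched for the TATA box (TATAAA) and the CCAAT box (spelled CCAAT), for a motif of the C/EBP factors that drive fat cell differentiation (TTGCNNAA) and for a motif of nuclear receptors (AGGTCA). Adipoq held 2 CCAAT matches, Plin1 held 1 CCAAT and 1 TTGCNNAA, and Cidec held 1 TTGCNNAA. Of 27457 promoters of this length, 14.3% held TATAAA, 37.7% CCAAT, 10.5% TTGCNNAA and 15.7% AGGTCA. A match describes the letters of the window and no more. Promoter entries were also matched for Lep and Cfd, which held 3 and 0 matches, and Fabp4 has no entry in the table used. The Lep matches include a TTGCNNAA site that reads the same on both strands and is counted on each.

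The 6 genes fell into trace and abundant transcripts. Compared per transcript length, in FPKM (counts scaled to depth and gene length), Fabp4 was the highest with a median of 1850 (lowest 1170.9, highest 4116) over the 99 libraries. Cfd followed with a median of 20.4 (11.6 to 36.1). The other 4 were at trace levels, with medians of 0.118 for Adipoq, 0.0516 for Cidec, 0.0474 for Lep and 0 for Plin1, and highest values of 4.98, 2.06, 0.456 and 1.02. The ranges of these 4 overlapped, whereas Fabp4, Cfd and the 4 trace genes did not overlap each other in any library. For scale, Fabp3, the fatty acid carrier of heart muscle, had a median of 6956 FPKM and Fabp5 one of 121 FPKM.

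Adipoq was scattered over single libraries. It ranged from 0 to 125 counts with a median of 3, was at 0 in 19 libraries and at 3 counts or fewer in 54, and reached 20 counts or more in 16. Those 16 libraries were spread over 13 of the 21 groups of condition and chamber and over 14 animals. Of these animals, 12 had such a library from 1 chamber, 2 from 2 chambers and 0 from all 3. The 10 libraries richest in Adipoq held 58.1% of the 1272 Adipoq counts of the series. Chosen by Adipoq alone, they also held 63.8% of the Plin1 counts, 51.4% of Cidec and 32.7% of Lep, but 11.3% of Cfd and 9.13% of Fabp4.

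**Figure D1:**
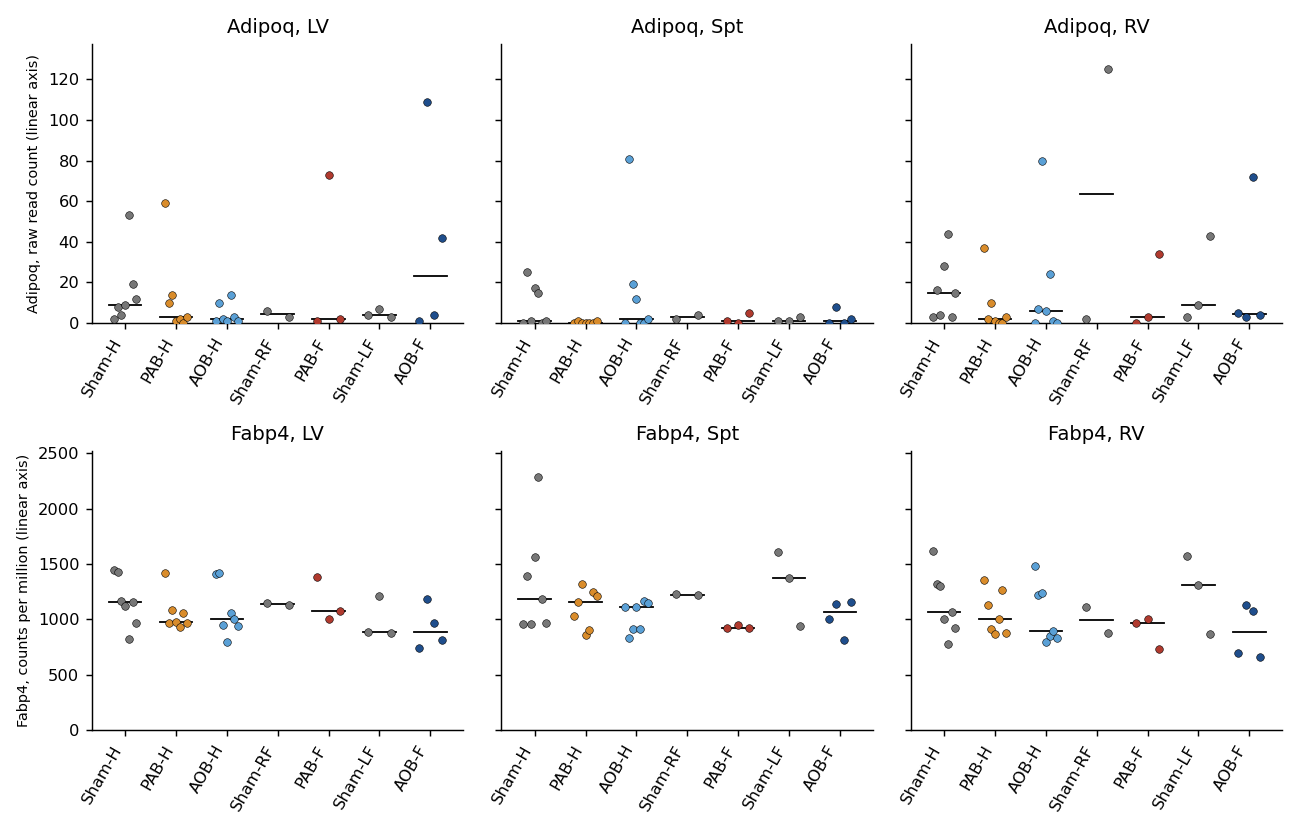
Adipoq in raw counts (upper panels) and Fabp4 in CPM (lower panels) in each of the 99 libraries, both on linear axes from 0, by condition and chamber; points are libraries and bars group medians. Adipoq stands high in single libraries of most groups, up to 125 counts, while Fabp4 stays between 664 and 2289 CPM.

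The richest library was the RV of Sham-RF replicate 2, with 125 counts of Adipoq, 29 of Plin1, 48 of Cidec and 22 of Lep. The LV of AOB-F replicate 2 came next with 109, 34, 57 and 16 counts of the same genes. The septum of AOB-H replicate 2 had 81, 11, 30 and 11. These libraries come from a control, an aortic banding failure and an aortic banding compensated group, and from 3 chambers. The RV of AOB-H replicate 3 had 80, 8, 43 and 11 counts, the LV of PAB-F replicate 2 had 73, 13, 31 and 14, and the RV of AOB-F replicate 3 had 72, 15, 34 and 6. The paired chambers were low in some of these animals. Sham-RF replicate 2 had 3 Adipoq counts in LV and 4 in septum, and AOB-F replicate 2 had 3 in RV and, by its label, 8 in septum. In others they were not. Sham-H replicate 5 had 53 Adipoq counts in LV, 44 in RV and 15 in septum. PAB-H replicate 1 had 59 in LV and 37 in RV but 0 in septum. AOB-H replicate 3 had 19 in septum beside its 80 in RV, but 2 in LV.

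Other fat cell genes that are no members were read in the same libraries. Thrsp, a regulator of lipogenesis in fat and liver, reached 129 counts in the RV of Sham-RF replicate 2 and 310 in the LV of AOB-F replicate 2, against a median of 3 over all libraries. Ucp1, the uncoupling protein that defines brown fat, was at 0 counts in 7 of the 10 libraries richest in Adipoq, the richest included, and had 17 counts in the LV of AOB-F replicate 2 and 9 in the RV of AOB-F replicate 3. The atrial light chain gene Myl7 was at 16960 counts in the RV of AOB-H replicate 3 and 9608 in the RV of Sham-LF replicate 3 (43 Adipoq counts), against a median of 163. In the LV of PAB-F replicate 2 it was at 88 counts, so that high Adipoq occurred with and without high Myl7.

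Co-variation was measured as Pearson's r of log2(CPM + 0.1) minus the group mean over the 99 libraries, a description in which libraries share depth and composition. Adipoq had an r of 0.885 with Cidec, 0.846 with Plin1 and 0.664 with Lep. It was 0.301 with Cfd and 0.0515 with Fabp4. Plin1 and Cidec had an r of 0.888, and Cfd and Fabp4 one of 0.532. The trace genes were high in the same libraries, whereas each of the 2 abundant genes had a higher r with the other than with Adipoq. Without the 3 animals of opposite direction (90 libraries) Adipoq had an r of 0.890 with Cidec, 0.847 with Plin1, 0.691 with Lep, 0.338 with Cfd and 0.105 with Fabp4.

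**Figure D2:**
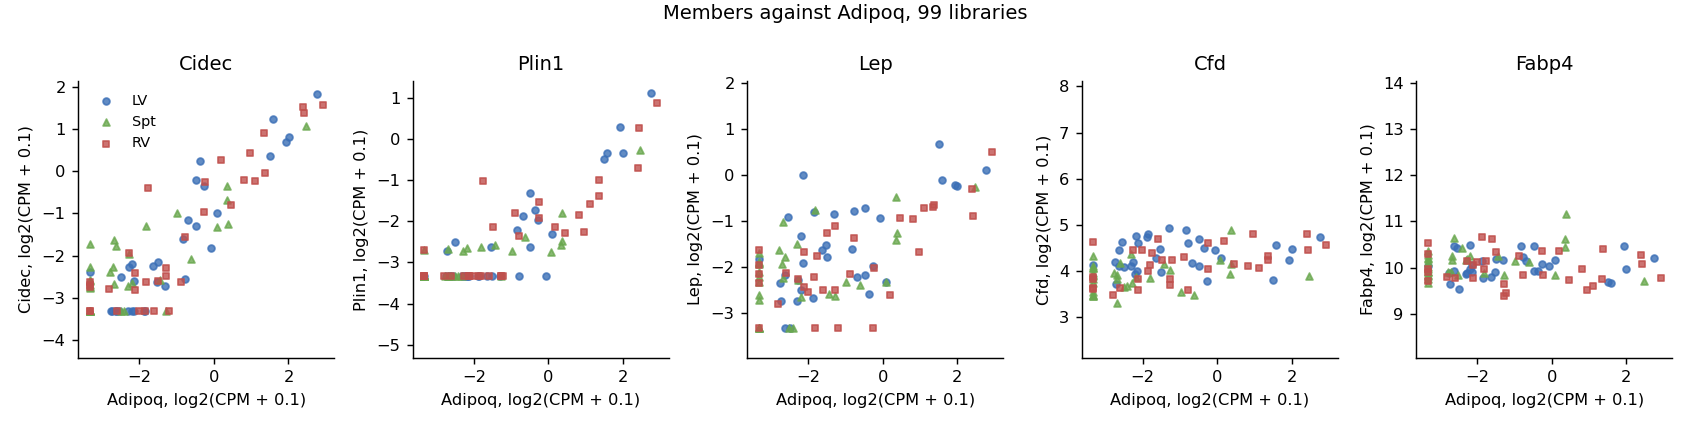
Each member against Adipoq in the 99 libraries, both axes in log2(CPM + 0.1), markers by chamber. Cidec, Plin1 and Lep climb with Adipoq, and Fabp4 stays level. Their r of 0.885, 0.846, 0.664 and 0.0515 was taken after the group mean was subtracted, whereas the points are not centred.

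Ranked over 11569 genes by this r, the 12 most like Adipoq included Thrsp (0.897), Car3 (0.846), Retn (0.815), Rbp4 (0.801), Pck1 (0.714), Nnat (0.707), Calml3 (0.704), Scd1 (0.679), Sfrp2 (0.602), Myl7 (0.599) and Anxa8 (0.598). Retn encodes the fat cell hormone resistin, Rbp4 a retinol carrier secreted by fat and liver, Pck1 the enzyme of glyceroneogenesis, and Scd1 the stearoyl-CoA desaturase. Over all genes, 27 of 11923 had an r above 0.5, which is 0.226%. The 5 genes most like Fabp4 were Psmb10 (0.878), Ifi27 (0.874), Gstp1 (0.869), Psmb9 (0.862) and RT1-A1 (0.862), among them immunoproteasome subunits and a class I histocompatibility gene.

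Lists of related genes were read against Adipoq and Fabp4 in the same way. Of 6 other adipocyte genes with an r, 4 had one above 0.5 with Adipoq, and their median was 0.765, against -0.01 over all genes. The median was -0.05 for 13 genes of lipid storage and lipolysis, 0.07 for 10 adipogenic and lipogenic genes, where Scd1 was the 1 gene above 0.5, and 0.12 for 4 brown fat genes. Of the genes of triglyceride handling that heart muscle uses too, Lpl (median 859 FPKM) had an r of -0.10 with Adipoq and Plin2 (median 50.4 FPKM) one of -0.33. Among markers of other cells, the median r with Adipoq was 0.50 for 5 atrial genes, 0.29 for 6 mesothelial and epicardial genes, 0.13 for 6 ventricular muscle genes, -0.04 for 10 endothelial genes and -0.09 for 5 lymphocyte genes. With Fabp4, the median was 0.70 for the endothelial genes, 0.37 for the ventricular muscle genes, 0.14 for the other adipocyte genes and 0.02 over all genes. Above 0.5 with Fabp4 were 6 of 10 endothelial and 3 of 6 ventricular muscle genes, against 2122 of 11923 over all genes. The endothelial genes ran from -0.436 for Cdh5 to 0.846 for Emcn. The paralogs Fabp3 and Fabp5 had a median of 0.18 with Adipoq and 0.72 with Fabp4.

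**Figure D3:**
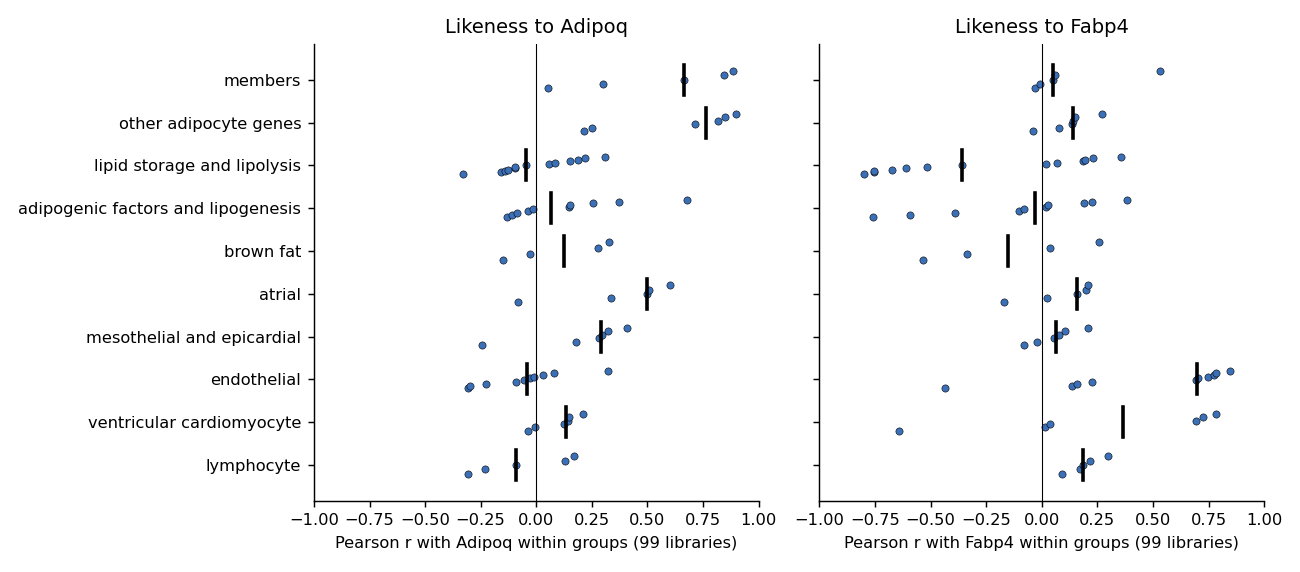
Pearson's r of each list gene with Adipoq and with Fabp4 over 99 libraries; points are genes and bars list medians. Other adipocyte genes have a median of 0.765 with Adipoq. Endothelial genes have a median of 0.70 with Fabp4 but run from -0.436 to 0.846.

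A technical measure also moved with the abundant members. The share of counts in the 2982 shortest of 11923 genes ran from 32.8% to 50.7% over the libraries, with a median of 38.9%. Its r was 0.820 with Fabp4 and 0.700 with Cfd, both short genes, against 0.198 with Adipoq, 0.149 with Plin1, 0.142 with Cidec and 0.0342 with Lep. Its part in the likeness of Fabp4 and Cfd to other genes was not tested.

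The scatter of each gene in log2(CPM + 0.1) was then divided into parts. For Adipoq, with a standard deviation of 1.71 on the log2 scale, condition held 6.96% of the sum of squares, chamber 9.96% and their combination 7.43%. Differences between animals of a group held 38.8%, and what was left within single libraries 36.9%. Plin1, Cidec and Lep had 37.9%, 39.1% and 42.7% in single libraries and 35.4%, 39.5% and 27.5% between animals. The mean over all genes tested was 14.6% for condition, 7.92% for chamber, 8.03% for the combination, 33.1% for animals and 36.3% for single libraries. Of the degrees of freedom, chamber had 2.04%, animals 26.5% and single libraries 53.1%. The 4 trace genes and the mean gene lay above that share for animals and below it for single libraries. Condition by itself held 4.61% to 8.23% of the 4 trace genes, against 14.6% of the mean gene and 6.12% of the degrees of freedom. The combination of condition and chamber held 19.1% of Lep, 13.8% of Plin1 and 9.34% of Cidec, each above the mean gene, and 12.2% of the degrees of freedom. All 21 groups together held 29.8% of Lep, 26.7% of Plin1, 24.4% of Adipoq and 21.5% of Cidec, against 30.6% of the mean gene. Without the 3 animals of opposite direction, condition held 6.10% to 10.2% of the trace genes and 17.1% of the mean gene. Cfd was the member with the largest chamber share, 22.3%, and Fabp4 had the smallest, 2.30%. In standard deviation, Cfd (0.396) and Fabp4 (0.307) were near the mean gene (0.339), and Cidec (1.45), Plin1 (1.06) and Lep (0.959) were far above it.

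**Figure D4:**
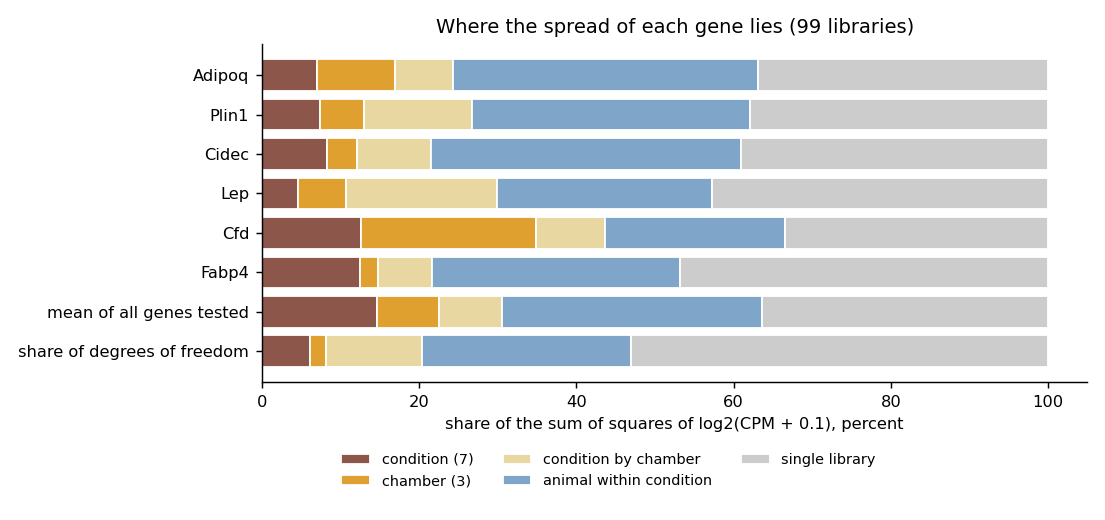
Share of the sum of squares of log2(CPM + 0.1), in percent, by condition, chamber, their combination, animal and single library, for each member, the mean of all genes tested and the degrees of freedom. The condition segment of the trace genes runs from 4.61% to 8.23%.

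The 12 comparisons of banded with sham animals asked whether the members differed with the load on the heart. The edgeR quasi-likelihood test called 0 members at an adjusted p under 0.05 in all 12, and DESeq2 also called 0 in each. The share of all genes called was 0% in 10 of them, 0.837% for AOB-F against Sham-LF in LV (98 of 11703 genes) and 0.232% for the same groups in septum (27 of 11624). Sham-H served as control for both PAB-H and AOB-H. In tissue, fewer fat cells and less RNA per fat cell cannot be told apart, and this holds for every comparison below. Fold changes are log2 with their standard error, and intervals cover counting error only.

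In the failing LV of aortic banding, the trace genes were high in part of the animals. AOB-F replicates 1 to 4 had 1, 109, 4 and 42 Adipoq counts, and the Sham-LF replicates had 4, 7 and 3. The groups overlapped, with 1 AOB-F library below the range of the shams, 1 inside it and 2 above it. Adipoq differed by 3.09 ± 1.42 on the log2 scale (adjusted p = 0.355). Plin1 had 1, 34, 1 and 10 counts against 0, 0 and 0. Taken over the groups this is 46 against 0 counts, at least 12.9-fold higher, or at least 4.65-fold without AOB-F replicate 2, with a fitted change of 6.73 ± 2.34 that depends on the prior count and is no bound (adjusted p = 0.166). Without the same library Adipoq was at 1.87 (adjusted p = 0.697) and Plin1 at 5.31 (adjusted p = 0.381). Cidec had 1, 57, 1 and 33 counts against 2, 1 and 0, a ratio of 25.9 with an interval of 8.59 to 128. Unadjusted, 3 of 6 members had p under 0.05, as had 12.7% of all genes. In the 2 libraries where these genes were high, AOB-F replicates 2 and 4, the atrial gene Myl7 was at 299 and 3889 counts and the mesothelial gene Msln at 44 and 560, and their part in the result was not tested. Lep, Cfd and Fabp4 differed by 0.43, -0.10 and -0.10. The median change of the 6 members was 1.76 against 0.01 over all genes.

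In LV after pulmonary banding, the failing group had most of its Adipoq, Plin1 and Cidec counts in 1 library. PAB-F had 1, 73 and 2 Adipoq counts and Sham-RF had 6 and 3, so the groups overlapped. The difference was 2.53 ± 1.75 (adjusted p = 1.000) and turned to -1.20 without PAB-F replicate 2. Plin1 had 0, 13 and 0 counts against 0 and 0, at least 3.32-fold higher, with a fitted change of 5.22 ± 3.20 (adjusted p = 1.000). Cidec had 0, 31 and 1 counts against 1 and 0, a ratio of 24.5 with an interval of 4.09 to 998. Lep had 6, 14 and 14 counts against 9 and 1, so its counts were not in 1 library. The remaining 3 members, Lep among them, lay between -0.26 and 1.37, and 0 members had an unadjusted p under 0.05. The median of the members was 1.95, or 1.55 with Plin1 at its bound, against -0.00248 over all genes.

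At the compensated stage the LV showed no member called either. Adipoq counts were 2 to 53 (median 9) in Sham-H, 0 to 59 (median 3) in PAB-H and 1 to 14 (median 2) in AOB-H, and the 3 groups overlapped. PAB-H differed from Sham-H by -0.17 ± 0.89 in Adipoq (adjusted p = 0.982) and by -0.03 ± 0.93 in Plin1 (adjusted p = 0.996). Within series 1, 2 and 3 the Adipoq value was 2.90, -1.95 and -3.48, so its sign differed between series. AOB-H differed from Sham-H by -1.71 ± 1.02 in Adipoq (adjusted p = 0.956). Plin1 had 2 counts over the AOB-H group and 25 over Sham-H, 13.2-fold lower with an interval of 3.29 to 115, and a fitted change of -3.20 ± 1.501 (adjusted p = 0.956). Within the series the Adipoq value was 0.22, -1.91 and -3.12. Unadjusted, 0 members had p under 0.05 with PAB-H and 3 with AOB-H, where 4.54% of all genes did, and the other members lay between -1.13 and -0.06 and between -2.51 and -0.07. Without the 3 animals of opposite direction the Adipoq differences were -0.12 and -1.53.

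The RV is the direct target of the load in pulmonary banding. There the failing group again had most of its Adipoq, Plin1 and Cidec counts in 1 library, and so did its controls. PAB-F had 0, 3 and 34 Adipoq counts and Sham-RF had 2 and 125. The groups overlapped, and the difference was -2.43 ± 1.64 (adjusted p = 0.692), turning to 2.22 without Sham-RF replicate 2. Plin1 had 0, 0 and 2 counts against 0 and 29, 23.4-fold lower with an interval of 5.92 to 202, and a fitted change of -4.25 ± 1.62 (adjusted p = 0.524) that turned to 2.71 without the same library. The other 4 members lay between -3.06 and -0.15, and 2 members had an unadjusted p under 0.05, as had 8.37% of all genes. AOB-F had 5, 3, 72 and 4 Adipoq counts against 3, 9 and 43 in Sham-LF, a difference of 0.36 ± 1.44 (adjusted p = 0.917), with Plin1 at 1.19 ± 1.34 (adjusted p = 0.662), the other members between -0.48 and 0.06, and 0 members at an unadjusted p under 0.05. Without AOB-F replicate 3 the Adipoq value was -2.07, and without Sham-LF replicate 3 it was 1.65.

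At the compensated stage in RV, Adipoq counts ran from 3 to 44 (median 15) in Sham-H, 0 to 37 (median 2) in PAB-H and 0 to 80 (median 6) in AOB-H. The ranges overlapped throughout. PAB-H differed from Sham-H by -0.99 ± 1.12 in Adipoq and -0.82 ± 1.14 in Plin1 (adjusted p = 1.000 for both). AOB-H differed by 0.20 ± 1.03 in Adipoq and -0.31 ± 1.06 in Plin1 (adjusted p = 1.000 for both). Within series 1 and 2 the Adipoq values were 1.06 and -2.75 for PAB-H and -1.40 and 0.69 for AOB-H. The other members lay between -1.41 and -0.11 for PAB-H and between -0.12 and 0.04 for AOB-H, with 0 members at an unadjusted p under 0.05 in both. Without the animals of opposite direction the Adipoq values were -1.03 and 0.20.

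The septum of PAB-H held almost no Adipoq. Its 7 libraries had 0 to 1 counts, 2 in total, against 0 to 25 (median 1) and 59 in total in Sham-H. The groups overlapped, since 2 Sham-H septa had 0 counts. The ratio of the totals was 29.7-fold lower in PAB-H with an interval of 7.87 to 251, and the fitted change was -4.44 ± 1.62 (adjusted p = 0.790). Cidec and Adipoq were the 2 members with an unadjusted p under 0.05, which 4.44% of all genes had. In AOB-H the septum had 0 to 81 counts (median 2), a difference of 0.94 ± 0.83 from Sham-H (adjusted p = 0.563) that turned to -0.78 without AOB-H replicate 2. Fabp4 was the 1 member with an unadjusted p under 0.05 there, which 15.9% of all genes had, at -0.37 ± 0.15 (adjusted p = 0.259). The other members lay between -2.12 and -0.26 for PAB-H and between -0.40 and 0.37 for AOB-H. Within series 3, the Adipoq differences were -4.05 for PAB-H and 1.47 for AOB-H. In series 2, 5 of 6 septum libraries were at 0 Adipoq counts.

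In the failure groups the septum was low throughout. PAB-F had 1, 0 and 5 Adipoq counts against 2 and 4 in Sham-RF, a difference of -0.54 ± 2.38 (adjusted p = 0.962). AOB-F had 0, 8, 0 and 2 against 1, 1 and 3 in Sham-LF, a difference of 0.28 ± 2.18 (adjusted p = 0.980). At such counts a difference in fat cell transcripts was not detectable. With 0 members at an unadjusted p under 0.05 in either comparison, Fabp4 lay at -0.39 ± 0.26 and -0.37 ± 0.22, with adjusted p = 0.816 and 0.524. Plin1 passed the count filter in LV and RV but not in septum, so 5 members were tested there. The medians of the members in the 4 septum comparisons were -1.08 for PAB-H, -0.13 for AOB-H, -0.39 for PAB-F and -0.37 for AOB-F, while the medians over all genes lay between -0.01 and 0.00.

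**Figure D5:**
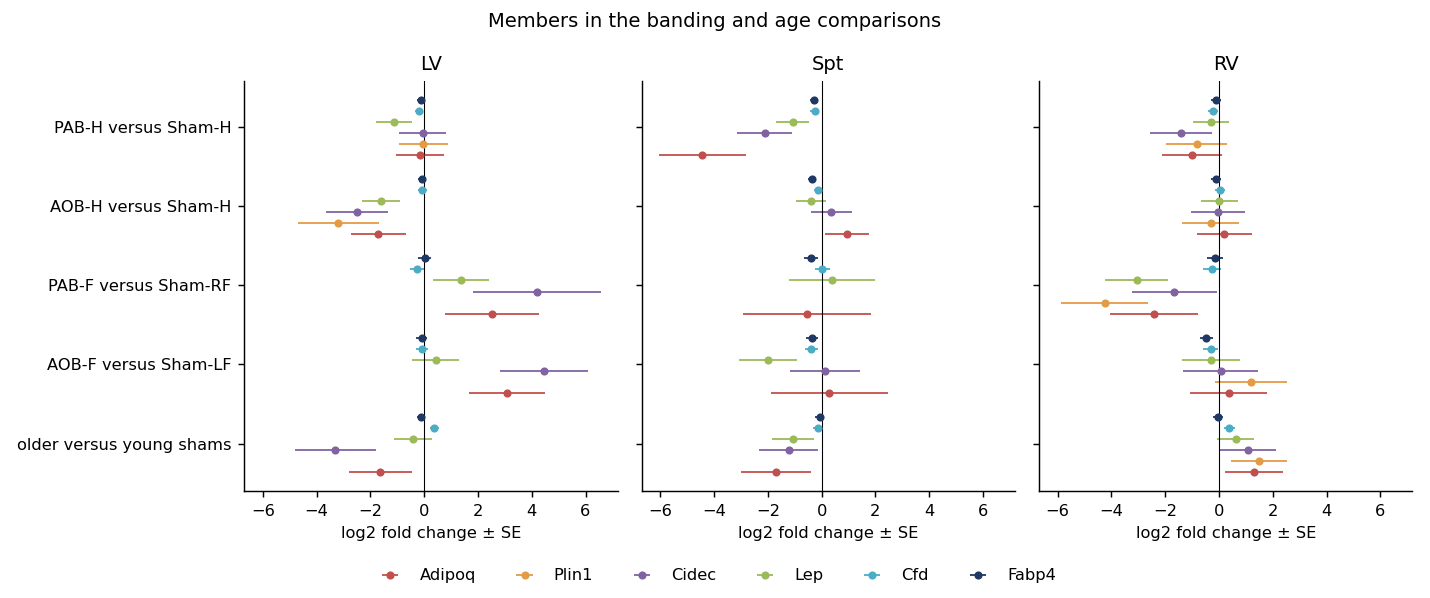
log2 fold change with its standard error for each member in the banding and age comparisons, by chamber. Left out are members not tested, with 1 group at 0 counts, or with both groups at 3 counts or fewer in total. Members with 1 group at 1 to 3 counts in total are drawn, among them Adipoq for PAB-H in septum. Adipoq lies on both sides of 0 with standard errors of 0.83 to 2.38, and Cfd and Fabp4 lie near 0.

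Age was compared between the 5 older shams and the 7 young shams of each chamber. Of the members, 0 were called by edgeR or DESeq2 in any chamber, and the share of all genes called was 0.0171% in LV, 0.103% in septum and 0.0852% in RV. In LV the older shams had 3 to 7 Adipoq counts in the 5 libraries (6, 3, 4, 7 and 3) and the young shams 2 to 53, an overlap, with a difference of -1.63 ± 1.16 (adjusted p = 0.918). Plin1 had 0 counts in all 5 older LV libraries and 25 over the young ones, at least 5.64-fold lower, with a fitted change of -4.85 ± 2.17 (adjusted p = 0.669). In RV the direction of Adipoq was the other one, 1.30 ± 1.08 (adjusted p = 0.643), with Plin1 at 1.49 ± 1.03 (adjusted p = 0.586), and these values turned to -1.03 and -1.99 without Sham-RF replicate 2. In septum Adipoq differed by -1.69 ± 1.30 (adjusted p = 0.521). Unadjusted, 3 members had p under 0.05 in LV (Plin1, Cidec and Cfd), where 6.99% of all genes did, and 0 in septum and RV. Without Sham-H replicate 6 and the other 2 animals of opposite direction, Adipoq was at -1.59 in LV and 1.096 in RV. Cfd was the 1 member higher in older LV, at 0.37 ± 0.17 (adjusted p = 0.677). Lep, Cidec and Fabp4 were at -0.42, -3.31 and -0.13 in LV, and the members other than Adipoq and Plin1 lay between -1.23 and -0.08 in septum and between -0.03 and 1.09 in RV. These shams are also the controls of the banding comparisons.

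Differences between these differences were tested directly in 6 interaction contrasts, where 0 members and 0% of genes were called by edgeR and DESeq2 called 0 members too. The age difference in RV minus that in LV was 2.93 ± 1.58 for Adipoq and 6.32 ± 2.16 for Plin1 (adjusted p = 0.940 for both). The same in septum minus LV was -0.07 ± 1.63 and 4.54 ± 3.02 (adjusted p = 1.000 and 0.999). The PAB-F response in RV minus that in LV was -4.96 ± 2.38 for Adipoq (adjusted p = 0.999) and -9.46 ± 3.09 for Plin1 (adjusted p = 0.988). The AOB-F response in LV minus that in RV was 2.74 ± 2.01 and 5.53 ± 2.89 (adjusted p = 0.926 for both). Between stages, the response to AOB in LV differed by 4.80 ± 1.75 for Adipoq (adjusted p = 0.527) and 9.93 ± 2.78 for Plin1 (adjusted p = 0.462). The response to PAB in RV differed by -1.44 ± 2.01 and -3.43 ± 2.18 (adjusted p = 1.000 for both). Plin1 values in contrasts that use the LV of older shams rest on groups at 0 counts and are no bounds. Unadjusted p under 0.05 was reached by 2, 0, 4, 1, 3 and 0 members in the order given, and by 3.60%, 4.86%, 4.89%, 2.40%, 7.60% and 2.67% of all genes.

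Chambers were compared within the shams, as the mean of the differences in Sham-H, Sham-RF and Sham-LF. Here the share of genes called was 12.6% for RV against LV, 2.55% for septum against LV and 6.73% for RV against septum, and members were called in the first 2 of these. RV against LV called 1 of 6 members, Cidec, which ranged from 0 to 48 counts (median 9) in 12 sham RV libraries and 0 to 23 (median 2) in 12 LV libraries. The ranges overlapped, and by animal the RV was higher in 5 and the LV in 7 of 12. The fitted difference of 3.02 ± 1.05 (adjusted p = 0.0438) gives equal weight to Sham-RF, where the RV had 0 and 48 counts and the LV 1 and 0. Leaving out 1 sham animal at a time lost the call in 9 of 12 fits. Without Sham-RF replicate 2 the fitted difference was 0.20 ± 1.60 (adjusted p = 0.954), and without Sham-LF replicate 3 it was 2.199 (adjusted p = 0.250). Without Sham-H replicate 6, the sham animal of opposite direction, it was 3.08 (adjusted p = 0.0341), and without all 3 such animals 3.09 (adjusted p = 0.0318). With the animal as a block, the chambers being cut from the same hearts, Cidec was at 2.77 (adjusted p = 0.0213) and Plin1 was called too, at 3.55 (adjusted p = 0.0302).

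Adipoq ran from 2 to 125 counts (median 12) in sham RV and 2 to 53 (median 6.5) in sham LV, and was higher in RV in 9 of 12 animals. The difference was 2.02 ± 0.90 (adjusted p = 0.119), and 0.36 ± 1.55 (adjusted p = 0.912) without Sham-RF replicate 2. Plin1 had 0 to 29 counts (median 2) against 0 to 12 (median 0), was higher in RV in 6 animals, lower in 3 and equal in 3, and differed by 3.66 ± 1.33 (adjusted p = 0.0562), a value set in part by the prior count since the LV of Sham-RF and Sham-LF was at 0. Without Sham-RF replicate 2 it was 1.33 (adjusted p = 1.000), with Sham-RF then at 0 Plin1 counts in both chambers, and it passed the threshold without Sham-H replicate 5 (3.80, adjusted p = 0.0476) or 6 (3.70, adjusted p = 0.0434). Without the 3 animals of opposite direction Adipoq was at 2.11 (adjusted p = 0.0875) and Plin1 at 3.71 (adjusted p = 0.0533). The other 3 members lay between -0.18 and 0.04. Over all 33 animals Adipoq was higher in RV than LV in 17, lower in 15 and equal in 1, and the 3 animals of opposite direction were among the 15. Averaged over all 7 conditions, Cidec differed by 1.29 (adjusted p = 0.0847) and 0 members were called. The median of the members within shams was 1.03, against -0.01 over all genes.

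Surface and atrial markers were read beside this chamber difference. Of 6 mesothelial and epicardial genes, 4 were higher in sham RV and 1 lower, led by Upk1b at 2.74 ± 0.73 (adjusted p = 0.00921) and Krt19 at 2.23 ± 0.67 (adjusted p = 0.0199), with Wt1 lower at -0.33. Their summed level was 26.6 to 142 CPM (median 59.7) in RV and 22.5 to 77.5 CPM (median 35.8) in LV. Msln was higher in RV than LV in 27 of 33 animals, and in 27 of 30 without the 3 animals of opposite direction. The 5 atrial genes summed to 17.9 to 1011 CPM (median 59.3) in sham RV and 24.6 to 1777 CPM (median 43.3) in sham LV, and 0 of them were called. The lowest p among them was that of Nr2f2, at -0.25 (adjusted p = 0.160), followed by Myl7 at 1.52 (adjusted p = 0.403). The part of either tissue in the fat cell result was not tested.

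Calls in the other lists between RV and LV are to be read beside the 12.6% of all genes called. Of 6 other adipocyte genes, 1 was higher, Retn at 3.05 ± 1.05 (adjusted p = 0.0428), followed by Car3 at 3.03 ± 1.11 (adjusted p = 0.0573). Of 10 adipogenic and lipogenic genes, Scd1 was higher at 1.96 (adjusted p = 0.0335), and Slc2a4, the insulin-responsive glucose transporter, was at 0.25 (adjusted p = 0.0586). Of 13 genes of lipid storage and lipolysis, 2 were lower, the lipases Lipe at -0.24 (adjusted p = 0.0417) and Mgll at -0.61 (adjusted p = 0.0496). Of 10 endothelial genes, Vwf was higher at 0.64 (adjusted p = 0.000834) and Tie1 lower at -0.40 (adjusted p = 0.0108). Among brown fat (4 tested), lymphocyte (5), ventricular muscle (6) and paralog (2) genes 0 were called. Genes of lowest p in these lists included Ebf2 (-0.09, adjusted p = 0.632), Cidea (-0.04, 0.701), Cd3g (0.24, 0.578), Tnni3 (0.35, 0.0741), Tnnt2 (0.18, 0.207), Fabp5 (0.28, 0.204) and Fabp3 (0.20, 0.271). Of the 17 genes tested in these lists, 1 had an unadjusted p under 0.05, against 29.3% of all genes. These lists were grouped here because 0 of their genes were called, so a low share follows in part from that choice.

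Cfd was the member that separated septum from LV. In CPM it was 9.73 to 29.5 (median 15.3, mean 16.4 ± 4.73 SD) in 12 sham septa and 13.8 to 30.5 (median 21.8, mean 22.4 ± 5.76 SD) in 12 sham LV libraries. The ranges overlapped, and the septum was lower in 11 of 12 sham animals and in 28 of all 33. The difference was -0.58 ± 0.15 (adjusted p = 0.0238), and -0.58 (adjusted p = 0.0103) with the animal as a block. With library series as a covariate it was -0.43 (adjusted p = 0.0716), which misses the threshold, and septum libraries lie in series 2 and 3 where LV libraries lie in series 1, 2 and 3. The share of short genes, which moved with Cfd across libraries, had a median of 41.2% in sham septum and 40.0% in sham LV, and of 38.5% in septum and 39.1% in LV over all 33 animals, and its part in the Cfd difference was not tested. Without Sham-H replicate 6 Cfd was at -0.58 (adjusted p = 0.0223), and without all 3 animals of opposite direction at -0.57 (adjusted p = 0.0203). The call was lost without Sham-RF replicate 1 (-0.50, adjusted p = 0.288) or 2 (-0.66, 0.126) and without Sham-LF replicate 2 (-0.54, 0.0933) or 3 (-0.52, 0.0868). Fabp4 had the next lowest p of the members, at 0.23 ± 0.14 (adjusted p = 0.504).

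Of the trace genes 0 were called between sham septum and LV. In sham septum Adipoq was at 0 to 25 counts (median 1.5), below LV in 8 of 12 animals, a difference of -0.78 ± 1.23 (adjusted p = 0.870), and Plin1 was at 1.17 ± 1.41 (adjusted p = 0.816). Without the 3 animals of opposite direction these were -0.69 and 1.18. Lep differed by -1.08 ± 0.65 (adjusted p = 0.508) within shams and, averaged over all 7 conditions, was called at -1.32 ± 0.39 (adjusted p = 0.0178). Of the other lists 0 genes were called between septum and LV, and at an unadjusted p under 0.05 there were 1 adipogenic, 2 brown fat, 2 lymphocyte and 1 ventricular muscle genes and 0 in the rest, against 13.7% of all genes. The lowest p-values were those of Cebpa (-0.43, adjusted p = 0.0891) and Scd1 (-1.24, 0.579) among adipogenic genes, Retn (1.70, 0.624) and Tusc5 (-0.08, 0.861) among other adipocyte genes, Agpat2 (-0.18, 0.618) and Plin2 (-0.05, 0.825) in lipid storage, and Ebf2 (-0.33, 0.127) and Cidea (-0.17, 0.261) in brown fat. Emcn (0.18, 0.475) and Kdr (0.18, 0.558) led the endothelial genes, Wt1 (0.22, 0.396) and Msln (-1.49, 0.477) the mesothelial, Nr2f2 (-0.13, 0.741) and Myl4 (0.27, 0.961) the atrial, and Cd3e (-0.94, 0.123) and Cd3g (-0.68, 0.285) the lymphocyte genes. Ryr2 (0.22, 0.330) and Myl2 (0.19, 0.456) led the muscle genes, and Fabp3 and Fabp5 were at 0.10 and 0.03 (0.816 and 0.966).

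Between RV and septum 0 members were called by edgeR or DESeq2, although 4 had an unadjusted p under 0.05, as had 19.4% of all genes. Adipoq was higher in RV in 11 of 12 sham animals and in 24 of all 33, with 6 lower and 3 equal. The difference was 2.80 ± 1.00 (adjusted p = 0.0757). Plin1 differed by 2.49 ± 1.02 (adjusted p = 0.133). Without Sham-RF replicate 2 these values were 1.46 ± 1.85 (adjusted p = 0.738) and 0.19 ± 1.23 (adjusted p = 0.957), and without the 3 animals of opposite direction 2.80 and 2.53 (adjusted p = 0.0644 and 0.137). Without Sham-H replicate 5, Cfd was called at 0.46 (adjusted p = 0.0393). With the animal as a block, Adipoq was called at 2.61 ± 0.80 (adjusted p = 0.0237). Averaged over all 7 conditions 4 members were called, Adipoq at 2.64 (adjusted p = 0.00120), Cidec, Plin1 at 1.98 (adjusted p = 0.0466) and Cfd. Over all 33 animals the septum had the lowest Adipoq median of the 3 chambers, 1 count, against 4 in LV and 4 in RV, and its 9 libraries above the floor compare with 18 in each ventricle.

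Whether an animal with Adipoq in 1 chamber had it in another was tested over the 33 animals, after the condition mean was removed from log2(CPM + 0.1). Pearson's r was 0.226 between LV and RV (permutation p = 0.208, adjusted 0.241) and Spearman's rho 0.255 (p = 0.155, adjusted 0.233). Between LV and septum r was 0.210 (permutation p = 0.241, adjusted 0.241) and rho 0.174 (p = 0.331, adjusted 0.331). Between RV and septum r was 0.379 (permutation p = 0.0296, adjusted 0.0887) and rho 0.464 (p = 0.00699, adjusted 0.0210). So 1 of the 3 pairs passed by rank and 0 passed by Pearson's r. Without the 2 animals farthest from the median the r values were 0.129, 0.322 and 0.365. Without the 3 animals of opposite direction (30 animals) r was 0.239, 0.217 and 0.310 and rho 0.281, 0.207 and 0.426, with an adjusted permutation p of 0.0591 for the rho between RV and septum, so that 0 pairs passed. Within library series 1, 2 and 3, the r between LV and RV was 0.862 (n = 6), -0.02 (n = 21) and 0.181 (n = 6). LV and septum libraries of an animal were mostly in different series, so no value within series is given for them. With the septa of AOB-F replicates 1 and 2 exchanged, as the sample sheet has them, r was 0.0123 between LV and septum and 0.396 between RV and septum.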

How the data were processed

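Polyadenylated RNA of tissue pieces was sequenced in 99 libraries, and the authors' methods name Trim Galore for trimming, STAR for alignment of single reads to the Rnor6.0 rat genome and featureCounts with UCSC gene models for counting, where reads over several genes were dropped. The strand setting of the counting is not given in the sources used here. The authors deposited raw counts per gene, normalized counts (a signal column: the count divided by a DESeq2 size factor, constant within each library) and FPKM values, which relate the count to gene length and depth. Counts were tested, and FPKM was used to compare levels between genes; the deposited normalized counts were not tested. Depth per library is given at the start of the results, and a value of 3 counts was taken as the floor.

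Groups were fitted per chamber, or over all 99 libraries for contrasts between chambers, with edgeR 4.0.16 (TMM factors, filterByExpr with a minimum count of 10, quasi-likelihood test) in R 4.3.3, and p-values were adjusted by Benjamini-Hochberg over all genes tested, with a threshold of 0.05. The tests were checked on simulated counts, with changes placed in genes above a mean of 1 CPM. Adipoq, Cidec, Lep and Plin1 had means of 0.772, 0.397, 0.251 and 0.143 CPM. The check therefore does not show how changes at their level are recovered. Correlations used log2(CPM + 0.1), scipy 1.17.1 and 100000 permutations, two-sided. Alternatives were size factors and the test of DESeq2 1.42.0, no filter, robust spread, library series as a covariate or one series at a time, other sets of samples, the animal or replicate number as a block, libraries left out, and, chosen after seeing the data, a pseudocount of 1 CPM, the exchanged septa and correlations and variance shares without the 3 animals of opposite direction.

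The members and the gene lists (other adipocyte, lipid storage, adipogenic, brown fat, endothelial, mesothelial, atrial, lymphocyte, ventricular muscle and paralog genes) were chosen with earlier results of these data known. Statistics are given in each comparison for Adipoq, Plin1 and every member called, and where members were called for the 2 genes of lowest p in each list; the 12 genes most like Adipoq and the 5 most like Fabp4 are named, and genes outside this rule were chosen after their values were seen. Values of 2 genes that it would name were left out. All deposited count columns were mapped to a sample. Promoters are those of RefSeq on GRCr8, not the build of the counts.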

Additional observations from a re-analysis of the deposited data

Results flagged for a closer look

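For each of 72 sets of 4 or 7 libraries (a member in a group), the end gap was taken as a share of the whole range. It passed Dixon's critical value at the highest library in 8 sets, which is 11.1%, and at the lowest in 0. The critical values pass about 5% of sets of normally distributed values. Counts near 0 are not so distributed, so the 11.1% cannot be set against the 5%. The share was 0.871 for Adipoq in the RV of AOB-F replicate 3 (72 counts), 0.687 for Lep in the LV of AOB-H replicate 5 (7 counts) and 0.648 for Fabp4 in the LV of PAB-H replicate 1 (22579 counts). The septum of AOB-H replicate 2 stood apart for Plin1 (0.694, 11 counts) and Lep (0.585, 11 counts). The septum of PAB-H replicate 2 did so for Cidec (0.624, 4 counts) and for Plin1 (1, from a single count against 0 in the other 6). Plin1 in the RV of PAB-H replicate 1 had a share of 0.58 (6 counts).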

How the results depend on the processing

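The count of members called kept its value in 191 settings other than leaving out a library and changed in 9. It became 1 with only the groups compared for PAB-F against Sham-RF in septum (Fabp4 at -0.39, adjusted p = 0.0122, in a fit that called 792 genes against 0). For RV against LV it was 0 without the filter, 2 with library series as a covariate, 2 with the animal as replicate block and 0 over 7 conditions. For septum against LV it was 0 with library series and 2 over 7 conditions (Cfd and Lep). For RV against septum it was 1 with the animal as replicate block and 4 over 7 conditions. Leaving out 1 sham animal with its 3 libraries gave 0 to 2, 0 to 1 and 0 to 1 for these 3, and Cidec lost its call in 9 of 12 and Cfd in 4 of 12 such fits.

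Directions of uncalled values reversed as follows. Adipoq within series 1 was 2.90 and 0.22 in LV for PAB-H and AOB-H, and 1.06 and -1.40 in RV. Adipoq for AOB-H in RV was also -0.0944 with library series and -0.80 with the replicate block, and -0.10 with the block for AOB-F in septum. Plin1 was 0.17 by DESeq2 for PAB-H in LV, 0.0516 within series 2 for AOB-H in RV and -0.77 over 7 conditions for septum against LV. Leaving out 1 library moved Adipoq from -1.60 to 0.55 (PAB-H in LV), -1.20 to 3.06 (PAB-F in LV), -0.78 to 1.40 (AOB-H in septum), -2.31 to 0.11 (PAB-F in septum), -1.37 to 0.86 (AOB-F in septum), -1.33 to 0.60 (AOB-H in RV), -5.21 to 2.22 (PAB-F in RV), -2.07 to 1.65 (AOB-F in RV) and -1.03 to 1.77 (age in RV). Plin1 moved from -1.76 to 0.63 (PAB-H in LV), -6.96 to 2.71 (PAB-F in RV) and -1.99 to 1.96 (age in RV).

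Replicate numbers did not pair the samples across conditions: the correlation of deviations ran from -0.313 to 0.787, and in 0 comparisons was every pair above 0.1; the block by number called 0 members in the banding comparisons. With a pseudocount of 1 CPM the correlations of Adipoq between chambers were 0.0585, 0.190 and 0.251. Adipoq, Plin1, Cidec and Lep rest on few counts. The cause of each change was not tested.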
